A study of Drosophila melanogaster with 4 samples.

Results

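Cuticle protein genes encode the structural proteins that, with chitin, make up the insect exoskeleton. The genes described here were the features of the count files whose FlyBase symbol begins with Lcp, Cpr and a digit, Ccp84, Edg and a digit, Acp with a number and A, or is Pcp, 105 of 15222 gene features. They comprised 70 Cpr genes, 11 Lcp genes of the 65A group, 6 other Lcp genes, 7 Ccp84 genes, 4 Edg and Pcp genes, the adult cuticle gene Acp65Aa and 6 Acp genes that encode male accessory gland proteins and not cuticle. The pattern for Tweedle genes, written TwdL, matched no symbol, since FlyBase spells them Twdl. The 26 Twdl genes were therefore kept apart and are given beside the members.

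The libraries were made from total RNA of wing imaginal discs, the larval epithelia that form the adult wing and notum, dissected by hand from wandering Drosophila melanogaster larvae at the third instar. The wtsP2 group (2 libraries) carried the wtsP2 allele of warts, the Hippo pathway kinase gene, and the wild-type group (2 libraries) was labelled wildtype. The labels give the strain yw for both groups. Age in hours, sex and the origin of the discs in a library are not in the labels, so p-values measure only the spread between these libraries, which may be technical.

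Most cuticle proteins carry a chitin-binding motif, the Rebers and Riddiford consensus, for which the Cpr genes are named. Insects make a new cuticle at each moult under control of ecdysone, and different members are used for larval, pupal and adult cuticle. Lcp genes are named for larval cuticle and Pcp for pupal cuticle, and the Edg genes are ecdysone-dependent genes of the prepupal epidermis. In a wandering larva the epidermis still carries larval cuticle, while the wing disc lays down pupal cuticle only after pupariation.

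The libraries held 3520970 and 3846682 counts in wtsP2 and 2112468 and 696952 counts in wild type. A floor of 3 counts, below which a gene is taken as not detected, stood for 0.852 and 0.780 CPM (counts per 1000000 counts of the library) in wtsP2 and for 1.42 and 4.30 CPM in wild type. Floors and counting intervals cover counting error only. The wts gene had 48 and 24 counts in wtsP2 and 46 and 0 in wild type, which does not check the genotype labels. All 9 wing disc genes found of the marker list were on in wtsP2 and 6 were on in wild type, where the other 3 had counts in 1 library, with summed levels of 1567 and 1581 CPM in wtsP2 and 1768 and 1885 CPM in wild type.

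Most cuticle protein genes were at 0 or below the floor in discs of both groups. A gene was called on in a group where both libraries held at least 3 counts, off where neither did, and split where only 1 did. In wtsP2, 12 members were on (11.4%, against 47.3% of all gene features), 12 split (11.4%, against 9.72%) and 81 off (77.1%, against 43.0%). In wild type, 5 members were on (4.76%, against 28.3% of all features), 10 split (9.52%, against 19.0%) and 90 off (85.7%, against 52.7%). No count in any library was found for 68 members (64.8%, against 38.5% of all features). The members are short, with a median exonic length of 655 bases against 1515 for all features, so that a given number of transcripts yields fewer reads. The members with a count had a median length of 752 bases and those without 613.5. Per library, 17 and 19 members reached the floor in wtsP2, and 12 and 8 did in wild type. Of all 15222 features, 7615 and 8260 reached it in wtsP2 and 6866 and 4631 in wild type.

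**Figure D1:**
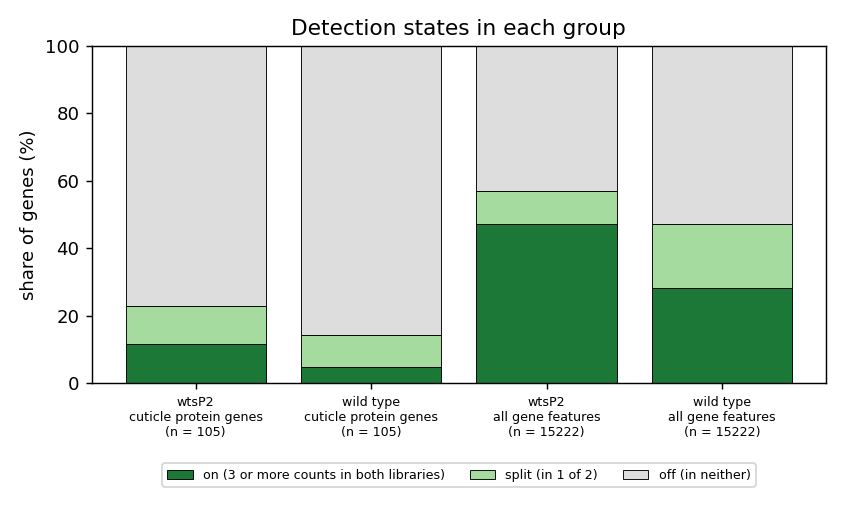
Share of genes (vertical axis, percent) that were on, split or off in each group, for the 105 cuticle protein genes (left pair of bars) and all 15222 gene features (right pair). The on share of the cuticle protein genes was 11.4% in wtsP2 and 4.76% in wild type, under the 47.3% and 28.3% of all features.

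The members on in both groups were Cpr49Ac and Cpr12A, both of which encode Cpr proteins. Cpr49Ac (FBgn0033725, chromosome 2R, 8274472 to 8277562, on build BDGP5 as in all positions given) showed 361 and 291 counts in wtsP2 and 419 and 281 in wild type. Per length these were 59.6 and 44.0 RPKM (CPM per kilobase of exon) in wtsP2 and 115 and 234 RPKM in wild type, and both wtsP2 libraries lay below both wild-type libraries. Cpr12A (FBgn0030494, chromosome X) had 50 and 106 counts in wtsP2 and 95 and 75 in wild type, or 16.4 and 31.7 RPKM in wtsP2 and 51.8 and 124 RPKM in wild type. Its groups did not overlap on the per-length scale either, although its raw counts did.

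On in wtsP2 and off in wild type were 8 members (7.62%, against 4.75% of all features): Cpr49Ah, Cpr64Ac, Cpr35B, Lcp65Ag2, Cpr65Ec, Cpr66D, Cpr47Eb and Cpr31A, the last of which had 4 and 6 counts and was named after its values were seen. Off in wtsP2 and on in wild type was 1 member, Lcp2 (0.952%, against 0.236% of all features). In wtsP2, 10 members were split that were off in wild type (9.52%, against 7.08% of all features), all with 27 counts or fewer. In wild type 8 members were split that were off in wtsP2 (7.62%, against 1.84% of all features), with 9 to 78 counts. The wild-type libraries were shallower, and a level could thus pass the floor in wtsP2 and miss it in wild type. With the floor set at 4.30 CPM in every library, 9 members were on in wtsP2 and 5 in wild type. The share of all features on at that floor was not computed, so these numbers have no background beside them.

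**Figure D2:**
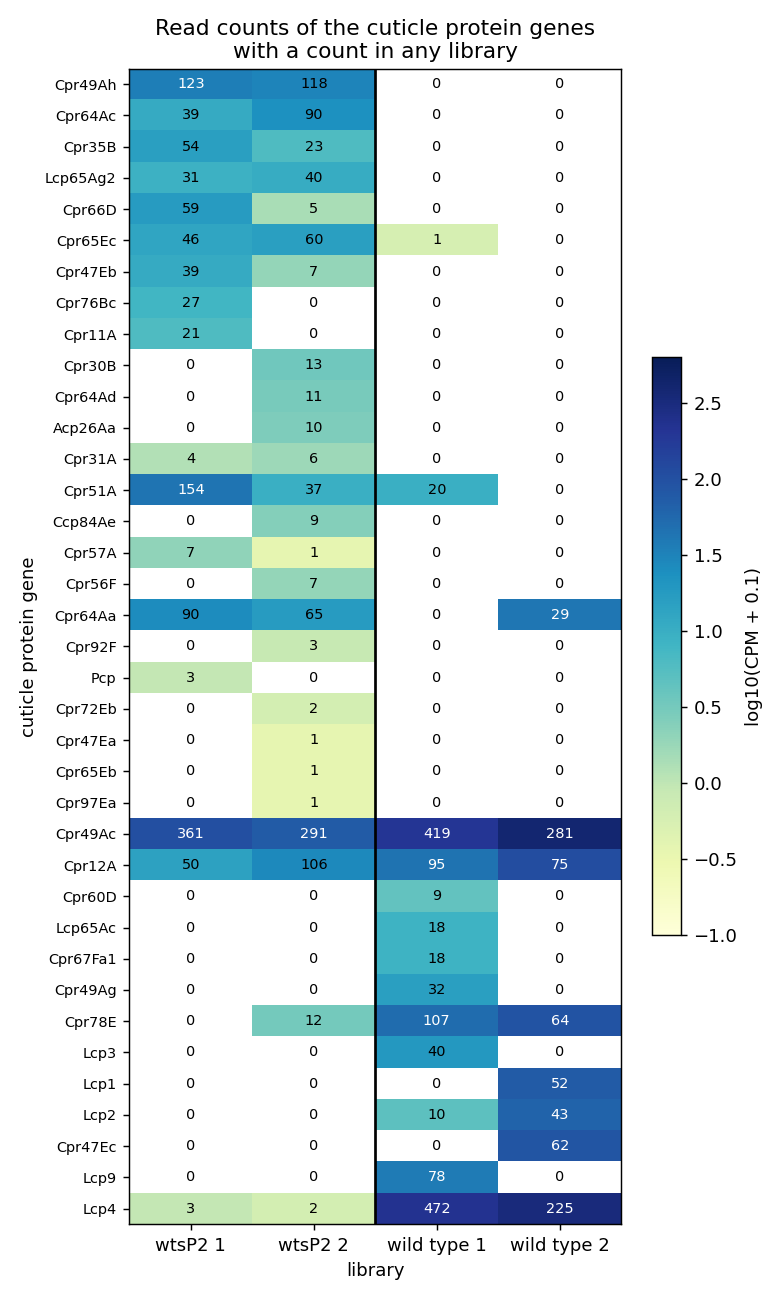
Read counts (numbers in the cells) of the 37 cuticle protein genes with a count in any library, in the wtsP2 libraries (left pair of columns) and the wild-type libraries (right pair), with colour giving log10(CPM + 0.1) and white a count of 0. Genes run from highest to lowest ratio of pooled CPM, after a small constant was added, in wtsP2 over wild type. Most genes in the upper block have counts in wtsP2 alone, and Lcp4 at the bottom has 3 and 2 counts in wtsP2 against 472 and 225 in wild type.

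Of 13 members with at least 20 counts in 1 wtsP2 library, 2 (Cpr11A and Cpr76Bc) had none in the other, 15.4% against 5.27% of all such features. Of 12 such members in wild type, 7 had none in the other library, 58.3% against 31.7% of all such features. These were Lcp1, Cpr47Ec and Cpr64Aa, at 0 in the first wild-type library, and Lcp3, Lcp9, Cpr49Ag and Cpr51A, at 0 in the second. A count of 0 in a single wild-type library is thus weak evidence that a gene was off.

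The comparison of wtsP2 with wild type addressed which of these RNAs differ in level when wts is mutated. With edgeR's quasi-likelihood test fitted over all 7278 genes that passed its filter on low counts, 0 of the 12 tested members passed an adjusted p of 0.05 as higher and 0 as lower (background 0.0% of all tested genes in each direction). At an unadjusted p under 0.05, 5 of the 12 tested members were higher and 3 lower, where 9.91% and 2.65% of all tested genes passed. DESeq2 called 0 members higher and 2 lower (Lcp4 and Lcp2) of the 16 members it gave an adjusted p, with 1.3% and 1.17% of all genes called higher and lower. Limma-voom called Cpr49Ah higher and Lcp4 lower, with 1.69% and 0.371% of all genes called. The other 93 members did not pass the filter, and a member at 0 in 1 group could pass it only where the other group was high. This held for Cpr35B, Cpr49Ah, Cpr64Ac and Lcp65Ag2, at 0 in wild type, and for Lcp2, at 0 in wtsP2. The numbers of members at an unadjusted p under 0.05 lay above the shares of all tested genes. They were partly fixed by the filter, so no excess is read from them.

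Lcp4, which encodes a larval cuticle protein, lay furthest apart among the tested members with counts in both groups. It had 3 and 2 counts in wtsP2 against 472 and 225 in wild type, or 1.24 and 0.756 RPKM in wtsP2 and 325 and 469 RPKM in wild type. The groups lay far apart, and each wtsP2 library would hold 874 or 954 counts at the pooled wild-type level. Lcp4 was thus at -8.43 ± 0.68 in log2 fold change (SE, n = 2 libraries a group; edgeR adjusted p = 0.142). It passed in DESeq2 (adjusted p = 1.46e-15) and in limma-voom (adjusted p = 0.0192). In edgeR its log2 fold change lay between -8.70 and -8.15 with any 1 library left out.

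The other Lcp genes outside the 65A group had counts in wild type alone, except the pseudogene Lcp1Psi, which had none. Lcp2, a larval cuticle gene, had 0 and 0 counts in wtsP2 and 10 and 43 in wild type. That is at least 46.3-fold lower in wtsP2, taking 3 counts over both libraries as the floor (edgeR adjusted p = 0.369). This bound was 152-fold when the first wild-type library was left out, 11.6-fold when the second was, and 24.2-fold and 22.1-fold when the first and the second wtsP2 library were. Lcp1 had no counts in wtsP2 and 0 and 52 in wild type, Lcp3 none in wtsP2 and 40 and 0 in wild type, and Lcp9 none in wtsP2 and 78 and 0 in wild type. Against the same floor they were at least 45.5-fold, 35.0-fold and 68.2-fold lower in wtsP2, but each of these values rests on 1 wild-type library. Leaving out either wtsP2 library brought them down to at least 21.7-fold, 16.7-fold and 32.6-fold at the lowest. Lcp1 and Lcp2, like Lcp3 and Lcp4, are close copies that can share reads, so their single values are uncertain. Summed over all Lcp genes, those of the 65A group included, the level was 10.3 ± 0.892 CPM in wtsP2 and 376 ± 118 CPM in wild type (SD, n = 2 each). Of the wtsP2 level, Lcp65Ag2 of the 65A group gave 8.80 and 10.4 CPM, and Lcp1 to Lcp4 together gave 0.852 and 0.520 CPM. In bulk tissue, fewer cells of a type and less RNA per cell cannot be told apart.

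Cpr78E and Cpr49Ac were the other members that lay lower in wtsP2 with counts in both groups, beside Cpr12A. Cpr78E (FBgn0037114, chromosome 3L, 21659554 to 21660080) had 0 and 12 counts in wtsP2 and 107 and 64 in wild type, or 0 and 6.80 RPKM in wtsP2 against 110 and 200 RPKM in wild type. Its log2 fold change was -5.30 ± 2.29 (SE; edgeR adjusted p = 0.451), and it moved to -10.16 with the second wtsP2 library left out, a value against a library at 0 that depends on the prior count and is no bound. Those of Cpr49Ac and Cpr12A were -1.63 ± 0.48 and -1.72 ± 1.12 (edgeR adjusted p = 0.368 and 0.729). When the first wild-type library was left out, the values were -5.60 for Cpr78E, -1.99 for Cpr49Ac and -2.16 for Cpr12A. Without the second, they were -4.88, -1.10 and -1.03. Among the members split in wild type, Cpr47Ec had no counts in wtsP2 and 0 and 62 in wild type, and Cpr49Ag none in wtsP2 and 32 and 0 in wild type.

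**Figure D3:**
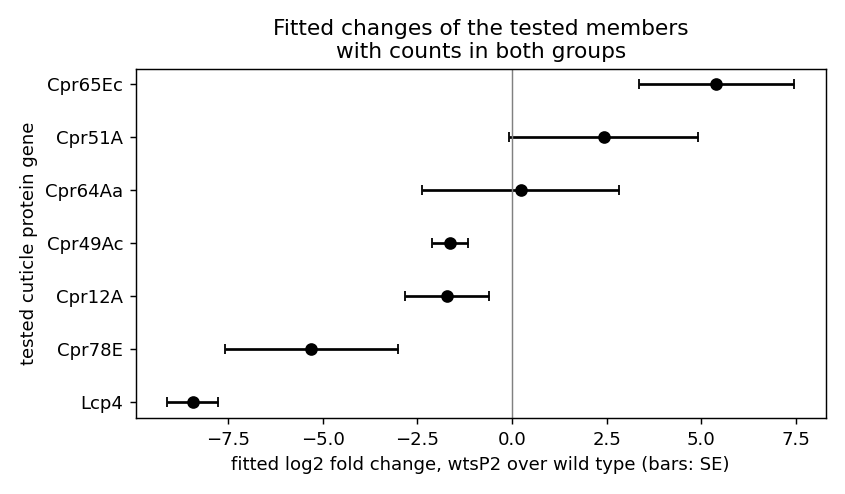
Fitted log2 fold change of wtsP2 over wild type (horizontal axis, points with bars of 1 SE) for the tested cuticle protein genes with counts in both groups. Lcp4 at -8.43 has the shortest bar relative to its distance from 0, and the bar of Cpr64Aa at 0.22 spans 0 widely.

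Cpr49Ah (FBgn0033731, chromosome 2R, 8301467 to 8302675) had 123 and 118 counts in wtsP2 and 0 and 0 in wild type, where its wtsP2 level predicts 69.1 and 22.8 counts. The wtsP2 libraries were close to each other, and the gene was at least 30.6-fold higher in wtsP2 by the same kind of floor in wild type (edgeR adjusted p = 0.368, limma-voom 0.0250, DESeq2 0.0658). In edgeR its log2 fold change lay between 9.15 and 9.71 with any 1 library left out, values against counts of 0 and no bounds.

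The bound of Cpr49Ah lay between 7.60-fold and 32.7-fold with 1 library left out, lowest without the first wild-type library, since the floor in the second alone is higher. Such changes of the bounds with a library left out were examined after seeing the data.

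Cpr64Ac had 39 and 90 counts in wtsP2 and none in wild type, at least 16.4-fold higher (edgeR adjusted p = 0.368). Its bound was 4.07-fold when the first wild-type library was left out and 10.4-fold when the second wtsP2 library was. Cpr35B had 54 and 23 counts in wtsP2 and none in wild type, at least 9.79-fold higher (edgeR adjusted p = 0.368). Its bound was 2.43-fold when the first wild-type library was left out and 5.60-fold when the first wtsP2 library was. These genes reached 9.13 to 26.3 RPKM in wtsP2, below the 44.0 to 59.6 RPKM of Cpr49Ac in the same libraries. Cpr65Ec had 46 and 60 counts in wtsP2 against 1 and 0 in wild type, a ratio of pooled levels of 40.4 with an exact 95% counting interval of 7.10 to 1611. Its log2 fold change was 5.40 ± 2.05 (SE, edgeR adjusted p = 0.369). It was 8.29 against the second wild-type library alone, a value against a count of 0 and no bound. Cpr66D (59 and 5 counts in wtsP2) and Cpr47Eb (39 and 7) had none in wild type and differed several-fold between the wtsP2 libraries.

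Lcp65Ag2, a larval cuticle gene of the 65A group, had 31 and 40 counts in wtsP2 and none in wild type, at least 9.02-fold higher (edgeR adjusted p = 0.368). Its bound was 2.24-fold when the first wild-type library was left out. It ran opposite in direction to Lcp1 to Lcp4. Its near-identical copies Lcp65Ag1 and Lcp65Ag3 had no counts in the count files, so which of the 3 genes the reads came from is uncertain. Cpr51A had 154 and 37 counts in wtsP2 and 20 and 0 in wild type, at 2.42 ± 2.49 (SE; edgeR adjusted p = 0.914). Its value was 1.52 with the second wild-type library left out, 1.09 with the first wtsP2 library left out and 3.15 with the second left out. It was 9.15 against the second wild-type library alone, which was at 0, so that this value is no bound. Cpr64Aa had 90 and 65 counts in wtsP2 and 0 and 29 in wild type, at 0.22 ± 2.61 (SE; edgeR adjusted p = 0.999), and its groups overlapped. Against the first wild-type library alone, at 0, it was 9.07, again no bound, and it took the opposite sign against the second alone, at -0.79.

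With the first wild-type library left out, edgeR called 4 members higher (Cpr49Ah, Cpr51A, Cpr64Ac and Cpr65Ec) and 7 lower (Cpr12A, Cpr47Ec, Cpr49Ac, Cpr78E, Lcp1, Lcp2 and Lcp4), where 31.5% and 8.53% of all tested genes were called. With the second left out it called 3 higher (Cpr49Ah, Cpr64Aa and Cpr64Ac) and 3 lower (Cpr78E, Lcp4 and Lcp9), where 12.3% and 5.67% of all tested genes were called. With the first wtsP2 library left out Lcp4 was the one member called, as lower, where 0.128% of all tested genes were higher and 0.179% lower. With the second left out it was again Lcp4, where 0.0386% were higher and 0.193% lower. With the replicate number as a block Lcp4 was the one member called, where 0.948% of all tested genes were higher and 0.522% lower.

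Over all 105 members, the wtsP2 libraries were both above each wild-type library in CPM for 10 (9.52%, against 16.5% of all features) and below them for 5 (4.76%, against 8.0% of all features). The 10 were the 8 genes that were on in wtsP2 alone, Cpr51A, and Cpr57A, which had 7 and 1 counts in wtsP2. The 5 were Lcp4, Lcp2, Cpr78E, Cpr49Ac and Cpr12A. Among the 12 tested members the counts were 6 and 5, where 30.3% and 16.5% of all tested genes lay above and below. Members at 0 in 1 group passed the filter only where the other group was high. The counts among tested members lay above the shares of all tested genes but were thus partly fixed by the filter, so no excess is read from them. The summed level of all members was 316 and 239 CPM in wtsP2 and 624 and 1192 CPM in wild type, a log2 ratio of the means of -1.71, and -1.17 when the second wild-type library was left out. Without the Lcp genes the summed level was 306 and 229 CPM in wtsP2 and 332 and 733 CPM in wild type. Cpr49Ac alone gave 32.5% and 31.6% of the members' counts in wtsP2. The members at 0 in both wild-type libraries summed to 116 and 90.5 CPM in wtsP2.

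Of the 4 Edg and Pcp genes, Edg78E, Edg84A and Edg91 had no counts in any library, and Pcp had 3 and 0 in wtsP2 and none in wild type. Pcp lies within the span of Gart, which had 736 and 738 counts in wtsP2 and 166 and 68 in wild type, and strand use in the counting is not given. Of the 7 Ccp84 genes, Ccp84Ae had 0 and 9 counts in wtsP2 and the rest had none. The adult cuticle gene Acp65Aa had none. Of the 6 accessory gland genes, Acp26Aa had 0 and 10 counts in wtsP2 and the rest had none. Of the 26 Twdl genes, which encode another family of chitin-binding cuticle proteins, TwdlE was on in both groups (23 and 20 counts in wtsP2, 25 and 30 in wild type). Its log2 fold change was -2.07 ± 1.95 (SE; edgeR adjusted p = 0.889). A further 3 Twdl genes were split in wtsP2, and none was split in wild type. The low-count genes in this paragraph were named after their values were seen.

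Cuticle protein genes lie in runs of neighbours, formed here from members with at most 20 kb between them. The run of Lcp1, Lcp1Psi, Lcp2, Lcp3 and Lcp4 (chromosome 2R, 4318139 to 4325908) spanned 7.77 kb and held 3 and 2 counts in wtsP2 against 522 and 320 in wild type. All 4 of its members with counts had higher summed counts in wild type. The longest run, 19 genes of the 65A group (chromosome 3L, 6123485 to 6154689), was almost empty, with Lcp65Ag2 counted in wtsP2 and Lcp65Ac (18 and 0) in wild type. The 49A run of 8 genes held 3 with counts, and their patterns differed: Cpr49Ah was found in wtsP2 alone, Cpr49Ag in wild type alone and Cpr49Ac in both. The 47E run of 7 genes likewise held Cpr47Eb with counts in wtsP2 alone and Cpr47Ec with counts in wild type alone. The run of 8 genes from Edg84A to Ccp84Aa held 0 and 9 counts in wtsP2 and none in wild type.

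**Figure D4:**
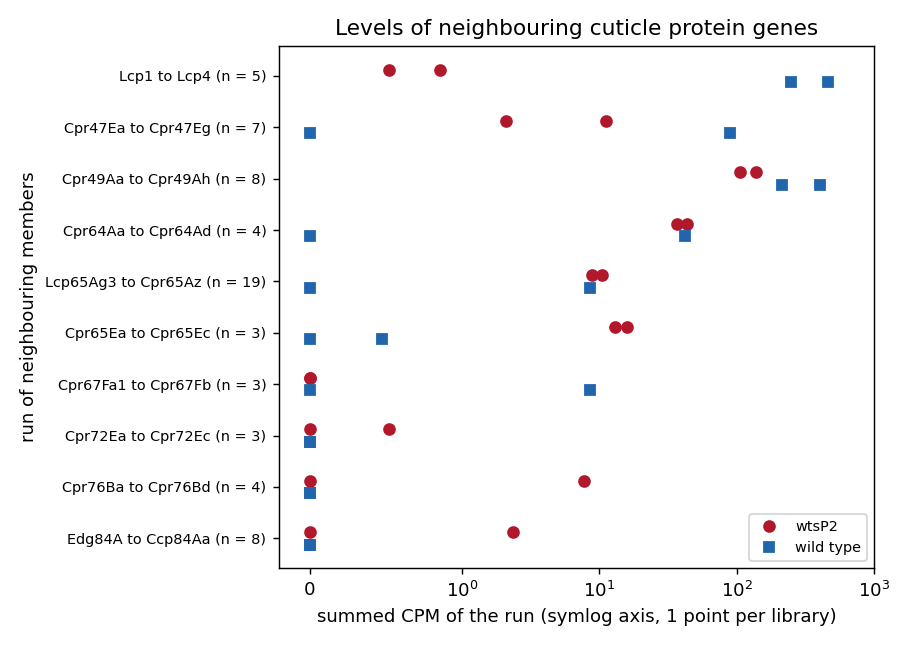
Summed level (horizontal axis, CPM on a symmetric log axis, 1 point per library) of each run of 3 or more neighbouring members with any count, with wtsP2 as circles above wild type as squares. The Lcp1 to Lcp4 run lies under 1 CPM in wtsP2 and at 247 and 459 CPM in wild type, while the 65A run lies near 10 CPM or below in all libraries.

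Some members overlap other genes, and how the reads there were assigned is not given. Cpr57A shared its span with Obp57d on the same strand, and both features held the same counts (7 and 1 in wtsP2, 0 in wild type). Cpr64Aa, Cpr64Ab, Cpr64Ac and Cpr64Ad all lie inside the span of CG43367, which had 420 and 337 counts in wtsP2 and 102 and 32 in wild type. Without the members that overlap another feature, 9 were on in wtsP2 and 5 in wild type.

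The authors' deposited table of group means rests on a different read counting and lists all 105 members. Each member's mean split in 1 way into a pair of whole counts, although which count belongs to which library is not given. By those values, 13 members were on in wtsP2 and 5 in wild type, with the share of all features on in that counting not computed. Of these members, 11 were also on in the per-library files in wtsP2 and 4 in wild type. Cpr50Cb and Cpr76Bc were on in wtsP2 in the authors' deposited table alone, and Cpr47Ec (63 and 36 counts) in wild type. In the authors' deposited table Lcp65Ag2 was split, with 42 and 1 counts in wtsP2, and so was Lcp2, with 40 and 0 in wild type. There Lcp65Ag1 had 4 and 0 counts in wtsP2. Lcp4 had 2 and 0 counts in wtsP2 and 352 and 148 in wild type in the authors' deposited table, and Cpr49Ah 123 and 119 in wtsP2 and none in wild type. The wild-type counts of Lcp4 were higher in the per-library files, at 472 and 225. Among members with no counts in the per-library files, the largest discord was Cpr50Ca. It had 6 and 1 counts in wtsP2 and 151 and 1 in wild type in the authors' deposited table. It overlaps S-Lap7 on the other strand, which had 0 and 17 counts in wtsP2 and none in wild type in the per-library files. Cpr50Ca and Cpr50Cb were named after their values were seen.

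**Figure D5:**
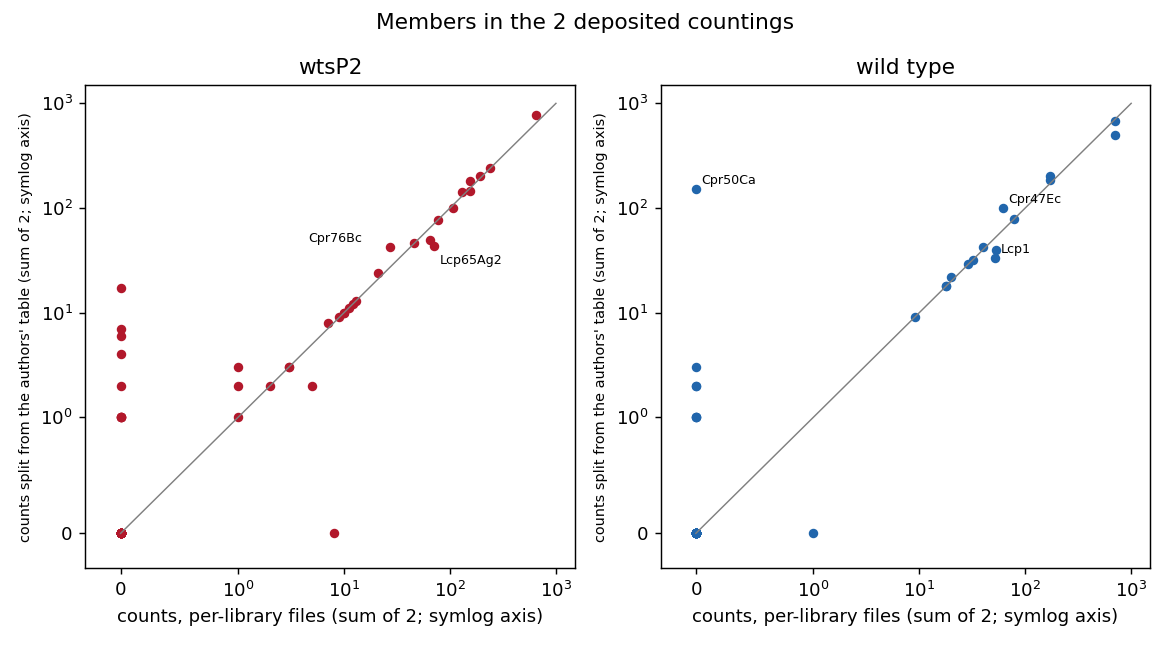
Counts of each cuticle protein gene summed over the libraries of a group in the per-library files (horizontal axis) against those split from the authors' deposited table (vertical axis), on symmetric log axes, for wtsP2 (left) and wild type (right), with the line of equality. Most genes lie near the line, and Cpr50Ca in wild type (0 in the per-library files) lies furthest from it.

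Genes that build, tan and regulate cuticle were described beside the cuticle protein genes, and the shares of all features on are the 47.3% in wtsP2 and 28.3% in wild type given above. Of 25 chitin and cuticle assembly genes matched, 19 were on in wtsP2 and 14 in wild type. Of the 20 tested, 0 passed the test in either direction, 14 were positive and the median log2 fold change was 0.83, against 0.24 for all tested genes. The chitin deacetylase gene verm was at 3.70 ± 0.40 and serp, another one, at 2.03 ± 0.39, the chitin synthase gene kkv at 1.81 ± 0.40 and Idgf6, an imaginal disc growth factor gene, at -2.25 ± 0.50 (SE; edgeR adjusted p from 0.157 to 0.368). Of 8 cuticle tanning genes matched, 4 were on in wtsP2 and 1 in wild type. The 4 tested gave 0 passing genes, with the tan gene t (240 and 190 counts in wtsP2, 24 and 0 in wild type) at 3.31 ± 2.04 (SE; edgeR adjusted p = 0.695). The pigment genes e and y, named after their values were seen, had no counts in any library.

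Of 17 ecdysone response and regulator genes matched, 15 were on in wtsP2 and 12 in wild type, and of 15 tested 0 passed in either direction (9 positive, median log2 fold change 0.32). The ecdysone-induced ETS factor gene Eip74EF had 701 and 801 counts in wtsP2 and 35 and 0 in wild type, at 4.50 ± 1.41 (SE; edgeR adjusted p = 0.368). The epidermal factor gene grh was at 1.45 ± 0.38 (adjusted p = 0.368), ImpE1, an ecdysone-inducible gene of discs, at 1.39 ± 0.64 (adjusted p = 0.494), and ImpE2, another such gene, at -2.67 ± 0.41 (adjusted p = 0.359), all by edgeR.

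Of the markers of other cell types and tissues, 0 passed edgeR's test in either direction, and their levels are given beside those of the cuticle protein genes. Among all tested genes 30.3% lay higher and 16.5% lower in both wtsP2 libraries, and among all features 16.5% and 8.0%. The 8 larval fat body genes summed to 900 and 1339 CPM in wtsP2 and 19435 and 19699 CPM in wild type, and 7 of the 8 lay lower in both wtsP2 libraries. The 8 salivary gland genes summed to 5.11 and 2.86 CPM in wtsP2 and 488 and 406 CPM in wild type, with Eig71Ee, Sgs5, Sgs7 and Sgs8 at 0 in wtsP2 and ng2 at 0 in all libraries. Of these 8, 3 lay lower and 1 higher in both wtsP2 libraries. The 8 haemocyte genes matched summed to 155 and 229 CPM in wtsP2 and 560 and 778 CPM in wild type, with He at 0 in wtsP2 and lz at 0 in all libraries. Of these 8, 3 lay lower in both wtsP2 libraries and 0 higher, and the groups overlapped for Hml (-0.28 ± 0.63) and Pxn (-0.31 ± 0.84; log2 fold change, SE). The 8 tracheal genes matched summed to 3984 and 4058 CPM in wtsP2 and 1420 and 1983 CPM in wild type, with 7 of 8 higher in both wtsP2 libraries, obst-A lower (-1.20 ± 0.37) and none at 0. Of these 8, 5 (Gasp, knk, obst-A, serp and verm) are also in the chitin and cuticle assembly list, so the lists are not separate evidence. The 5 muscle genes matched summed to 103 and 98.5 CPM in wtsP2 and 135 and 426 CPM in wild type, with up at 0 in all libraries and twi at 0 in wild type, and 2 lay lower and 1 higher in both wtsP2 libraries. The part of these cell types and tissues in the results for cuticle protein genes was not tested.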

How the data were processed

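Total RNA of wing imaginal discs was prepared in 4 libraries, per the labels' protocols with a SOLiD kit for total RNA. HTSeq, DESeq and the builds BDGP5 and dm3 are named in the submitters' processing notes, with aligner and strand setting not given in the sources used here. Raw counts were deposited by the authors per gene feature with lengths and coordinates. They also deposited RPKM, per the file headers, used here for 1 alternative only. RPKM values in the text were computed from counts, lengths and library totals. A deposited table gives each group's mean signal, counts divided by DESeq size factors and averaged over 2 libraries, per the file headers. Each member's mean was split into 2 whole counts by its steps (relative tolerance 1e-07). Its fold columns held error codes and were not used.

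FlyBase identifiers were matched to symbols through the reference annotation (14346 features). Libraries were grouped by their titles. The fit used edgeR 4.0.16 in R 4.3.3 (filterByExpr, TMM, robust quasi-likelihood F test, Benjamini-Hochberg over all tested genes, threshold 0.05). Each SE was the size of the log2 fold change divided by the root of its F. DESeq2 1.42.0 and limma 3.58.1 were alternatives, and the procedure was tested on simulated data. Members and lists were chosen with earlier results of these data known. Members that were tested or had at least 20 summed counts could be named, as could in other lists the 4 tested genes with the smallest adjusted p and up to 2 more of high level.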

Additional observations from a re-analysis of the deposited data

How the results depend on the processing

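Among refitted values of the 12 tested members, 115 kept their direction and side of the threshold, 22 newly passed it and 2 changed sign. Both sign changes were Cpr64Aa, at -0.79 when the first wild-type library was left out and at -0.04 when the first wtsP2 library was. It was 9.07, against a count of 0, when the second wild-type library was left out. The other scalings, the stricter filter (8 members tested) and a threshold of 0.01 called 0 genes. Genes called higher and lower numbered 21 and 16 with no filter, 96 and 86 by DESeq2, 123 and 27 by limma-voom and 69 and 38 with the replicate number as a block. With 1 library left out they ranged from 3 to 2514 higher and from 14 to 681 lower. Members called higher numbered 1 by limma-voom (0 by DESeq2), and 0 to 4 with 1 library left out. Members called lower numbered 1 with no filter, 2 by DESeq2, 1 by limma-voom, 1 (Lcp4) with the block, and 1 to 7 with 1 library left out, and the cause was not tested. A fit without a library admits other genes and takes its spread from fewer libraries. Where a group keeps 1 library, its spread is taken to be that of the other group. Same-numbered libraries deviated together at r = 0.00801 over genes, so the numbers were not taken as pairs. The log2 ratio of summed levels ranged from -2.10 to -1.17 with 1 library left out. The numbers of members on stayed within 9 to 14 in wtsP2 and 5 to 6 in wild type under the other floors, member sets and counting. The sets with Twdl genes or without overlapping genes and the counts from the authors' deposited table were chosen after seeing the data. Depth limits the wild-type calls: in the shallower library 3 counts stand for 4.30 CPM.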
